A study of Mus musculus with 188 samples.

Results

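Hox genes encode homeodomain transcription factors that give cells a positional identity along the body axis, and 33 of them were read in the mouse aorta. They were taken as every gene whose single annotated symbol starts with Hoxa, Hoxb, Hoxc or Hoxd followed by a number, which made 33 of 11725 named genes, read by 35 probe sets. The probe set with the highest mean over arrays stood for a gene. By paralog group 14 were anterior (groups 1 to 5), 6 were central (groups 6 to 8) and 13 were posterior (groups 9 to 13). Hoxa gave 9 genes on chromosome 6, Hoxb 10 on chromosome 11, Hoxc 5 on chromosome 15 and Hoxd 9 on chromosome 2.

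The values came from 188 Affymetrix HT_MG-430A arrays of aortic RNA from 94 mouse strains. All mice were described as wild-type males of 16 weeks kept on a chow diet. The strain names BXD24/TyJ-Cep290<rd16>/J and BXD29-Tlr4<lps-2J>/J nonetheless carry named alleles of Cep290 and Tlr4. Each value is an RMA log2 expression value. Without the 2 BXD32/TyJ arrays, whose descriptions carry an unexplained suffix, 186 arrays of 93 strains remained: 28 AXB and BXA strains, 27 BXD strains, 10 BXH strains and 28 classical inbred strains. The recombinant inbred families were bred from C57BL/6J and another parent, A/J for AXB and BXA, DBA/2J for BXD and C3H/HeJ for BXH, and all 4 parents are among the inbred strains. Of these, 78 strains had 2 arrays, 9 had 1, 3 had 3 and 3 had 4. The labels name the aorta without a segment, and nothing in them says that arrays of 1 strain came from separate animals.

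In the embryo Hox genes are switched on in the order in which they lie in their clusters, so that low-numbered paralogs reach towards the head and high-numbered paralogs act in the lumbar, sacral and tail regions. Part of this order persists in adult connective tissue, smooth muscle and fat, and posterior Hox genes are known to be more active in abdominal than in thoracic vessels. The levels of anterior and posterior Hox genes were therefore read as markers of the stretch of aorta, and of the tissue around it, that each array held.

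The promoters of 4 genes are shown because the results turn on them: the Hox gene with the highest mean level in each class (Hoxa5, Hoxd8 and Hoxd9, called lead genes, a choice of probe set and not an order of transcript levels) and Hoxa7, a central gene whose level differed between strains. Each is a stretch of 300 bases from RefSeq on build GRCm38.p6 that ends 50 bases after the gene's start, printed 5′ to 3′ on the gene's strand. Capitals mark TTTATG on either strand, the caudal-type (CDX) motif; the PBX-HOX composite motif TGATNNAT, searched on both strands in the same way, had no match in these 4.
Hoxa5, chr6:52204538-52204837, minus strand: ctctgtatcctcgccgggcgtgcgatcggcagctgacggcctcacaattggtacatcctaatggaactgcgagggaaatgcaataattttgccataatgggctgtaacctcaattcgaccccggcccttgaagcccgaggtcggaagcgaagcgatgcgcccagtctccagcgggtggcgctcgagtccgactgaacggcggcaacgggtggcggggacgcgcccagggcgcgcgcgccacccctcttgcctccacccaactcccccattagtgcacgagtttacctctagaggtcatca
Hoxa7, chr6:52218524-52218823, minus strand: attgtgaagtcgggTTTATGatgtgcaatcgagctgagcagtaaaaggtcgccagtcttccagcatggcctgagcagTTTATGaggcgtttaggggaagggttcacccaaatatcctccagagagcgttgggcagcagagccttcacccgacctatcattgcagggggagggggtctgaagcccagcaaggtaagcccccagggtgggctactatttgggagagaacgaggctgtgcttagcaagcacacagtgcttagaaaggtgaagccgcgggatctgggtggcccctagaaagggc
Hoxd8, chr2:74704365-74704664, plus strand: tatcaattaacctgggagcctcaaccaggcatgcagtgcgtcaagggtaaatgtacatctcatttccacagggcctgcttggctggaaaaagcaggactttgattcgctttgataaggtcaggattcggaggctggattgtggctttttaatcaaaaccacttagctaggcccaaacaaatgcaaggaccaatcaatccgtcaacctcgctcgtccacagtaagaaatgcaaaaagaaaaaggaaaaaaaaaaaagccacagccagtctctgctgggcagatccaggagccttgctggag
Hoxd9, chr2:74697513-74697812, plus strand: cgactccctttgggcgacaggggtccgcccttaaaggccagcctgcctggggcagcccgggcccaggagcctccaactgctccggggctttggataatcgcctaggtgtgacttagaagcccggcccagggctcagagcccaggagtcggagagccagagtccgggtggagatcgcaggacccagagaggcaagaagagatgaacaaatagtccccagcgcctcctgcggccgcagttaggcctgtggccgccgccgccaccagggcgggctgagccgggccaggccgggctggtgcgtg

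Of the 33 genes, 21 had a promoter in the RefSeq table, and Hoxc8 is named here without one. TTTATG occurred in 11.9% of 32851 promoters of this length and in those of 5 of the 21 Hox genes. In Hoxa7 it occurred at bases 15 and 78 of the stretch shown. TGATNNAT occurred in 8.85% of all promoters and in those of 4 of the 21. A match of these letters is a description of sequence only.

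The tissue label was checked first. Of 12 smooth muscle markers 10 were measured, and Acta2, smooth muscle actin, read 11.05 at the lowest, 12.46 at the median and 13.13 at the highest. Myh11, smooth muscle myosin, read 6.94, 9.34 and 10.42 in the same way. Marker scores (the mean of a list's centred log2 values) were above 1 on 36 arrays for thymocytes, 36 for squamous epithelium, 84 for skeletal muscle, 24 for cardiac muscle, 27 for neurons and 4 for kidney and adrenal. Sftpc, a lung surfactant gene, was above 8 on 17 arrays and Alb, serum albumin, on 8. Markers of neighbouring organs thus differed widely between arrays. Ucp1, the marker of brown fat, was at 9.75 or higher on all 186. Less RNA per cell and fewer cells of a type cannot be told apart in such bulk samples.

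The Hox genes that read above background on most arrays were members of groups 2 to 8 and Hoxd9, and no gene of groups 10 to 13 did so on any array. As a rough floor, 73 probe sets of odorant, vomeronasal and taste receptors, which the aorta is not known to use, were read on each array, and the 95th percentile of their values lay between 3.77 and 4.73. Probe sets differ in response, so a gene under this floor may still be transcribed. In all, 11 of the 33 genes were above the floor on most arrays (7 of 14 anterior, 3 of 6 central and 1 of 13 posterior) and 19 were above it on under 10% of arrays.

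Among the anterior genes, Hoxa5, needed for the lung, the cervical and upper thoracic skeleton and also used in fat, was above the floor on all 186 arrays. It read 5.39 at the lowest (C57L/J replicate 1), 7.56 at the median and 8.71 at the highest (NOD/ShiLtJ replicate 1). Hoxa3, which patterns the pharyngeal arches that form the thymus and parathyroid, read 4.01, 4.97 and 6.06. Its probe set is of a type that can match several transcripts, and the gene's other probe set followed it only loosely over arrays (r = 0.273). Hoxb4, known from blood stem cells, read 4.83, 5.94 and 6.73, and Hoxc4 read 4.29, 5.49 and 7.07. Both genes were also above the floor on 100% of arrays. Hoxa4 read 3.81, 4.68 and 6.55. Hoxb2, a hindbrain segment gene, read 3.92, 4.82 and 6.40, with its top value in BXH2/TyJ replicate 1. Hoxb3 read 3.48 to 5.51 around a median of 4.22.

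The remaining anterior genes were dim on most arrays. Hoxa2, Hoxb5 and Hoxc5 reached 4.59, 4.94 and 5.12 on their highest arrays from medians of 3.65, 3.51 and 3.79. Hoxb1, Hoxd1, Hoxd3 and Hoxd4 were above the floor on 0 of 186 arrays. Signals of neighbouring Hox transcripts that overlap in the genome cannot be told apart where a probe set matches both.

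The central genes act in the thoracic region of the embryo. Hoxd8 was above the floor on 99.5% of arrays and read 4.25 at the lowest (RIIIS/J replicate 2), 5.03 at the median and 6.36 at the highest (BXD21/TyJ replicate 1). Hoxa7, a gene of the thoracic axis, read 3.51 (SWR/J replicate 1), 5.08 and 5.88 (BXD15/TyJ replicate 2). Hoxc8, which acts in brachial motor neurons and the ribs, had the widest spread over arrays of the 33 genes, with an SD of 0.61, and read 3.10, 4.49 and 6.47. Hoxb6, Hoxb7 and Hoxb8 had medians of 3.75, 3.48 and 3.79.

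The posterior genes split between group 9 and the groups after it. Hoxd9 was the posterior gene with the highest mean and was above the floor on 154 arrays (82.8%). It read 3.69 at the lowest (CBA/J replicate 2), 4.36 at the median and 6.46 at the highest (AXB6/PgnJ replicate 2). Hoxc9, which marks the lower thoracic region, was above the floor on 34 arrays (18.3%) and read 3.35, 3.89 and 5.12. Hoxa9 and Hoxb9 were above it on 1 array each, C3H/HeJ replicate 2 at 4.28 and BXA12/PgnJ replicate 1 at 4.82. The 9 genes of groups 10 to 13, which pattern the hindlimb, kidney, genital tract and tail, read 2.73 to 4.02, with medians of 2.94 to 3.35 and SDs of 0.12 to 0.18. They were above the floor on 0 of 186 arrays.

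**Figure D1:**
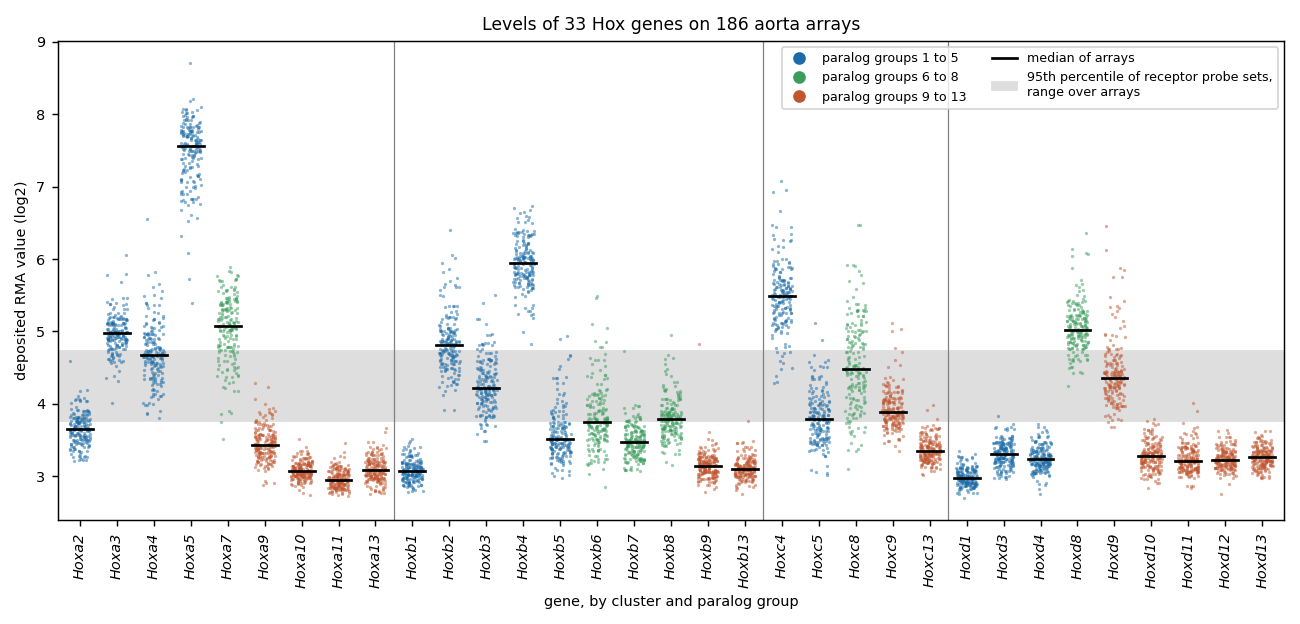
Log2 RMA levels of the 33 Hox genes on 186 arrays, ordered by cluster and paralog group and coloured by class, with each array as a point and the median as a bar; the grey band is the range over arrays of the receptor floor. Hoxa5 points lie at 5.39 or higher, above the band, while all points of groups 10 to 13 lie between 2.73 and 4.02.

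The strains differed in the levels of 9 Hox genes, led by Hoxa5, Hoxa7 and Hoxc8. In limma's moderated F test over the 84 strains with 2 or more arrays (177 arrays), these 9 of 33 passed at an adjusted p below 0.05 (27.3%), against 46.5% of all 22327 probe sets. By class, 6 of 14 anterior, 2 of 6 central and 1 of 13 posterior genes passed. Below the median probe set level 4 of 26 Hox genes passed (15.4%), against 23.0% of all probe sets there. Above it 5 of 7 Hox genes passed (71.4%), against 70.0% of all. At an unadjusted p below 0.05, 11 Hox genes passed. The median intraclass correlation (ICC, the share of variance lying between strains) was 0.0952 for the Hox genes and 0.182 for all probe sets.

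Hoxa5 had the highest ICC of the family, 0.324 (95% interval 0.133 to 0.496, adjusted p = 0.00214 by limma). Its strain means ran from 5.90 ± 0.26 in RIIIS/J to 8.24 ± 0.67 in NOD/ShiLtJ (SD, n = 2 each, limma fit as above), the widest range of any anterior gene. Hoxa7 had an ICC of 0.314 (0.122 to 0.487, adjusted p = 0.00291), and its means ran from 4.12 ± 0.52 in BXD14/TyJ to 5.80 ± 0.12 in BXD15/TyJ. Hoxc8 had an ICC of 0.308 (0.115 to 0.482, adjusted p = 0.00324), and its means, which had the widest range of all 33 genes, ran from 3.22 ± 0.17 in BXD21/TyJ to 5.91 ± 0.78 in BXD28/TyJ. These 3 genes passed in each of the 84 fits that left out 1 strain.

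Each of the other genes that passed was lost in 1 or more of the fits that left out 1 strain. Hoxb2 had an ICC of 0.238 (0.0415 to 0.421, adjusted p = 0.0199), with means of 5.86 ± 0.23 in BTBR T<+> tf/J and 4.15 ± 0.32 in RIIIS/J, and an adjusted p of 0.0693 by limma without BTBR T<+> tf/J. Hoxb4 had an ICC of 0.215 (adjusted p = 0.0343), with 6.51 in BXD28/TyJ at the top and 5.03 in RIIIS/J at the bottom. Hoxa3 (ICC 0.213, adjusted p = 0.0399), Hoxb3 (0.209, 0.0380) and Hoxa4 (0.202, 0.0413) followed. Without RIIIS/J, 5 of the 33 genes passed, and Hoxa3, Hoxa4, Hoxb3 and Hoxb4 had adjusted p-values of 0.0799, 0.0820, 0.0802 and 0.133. Each of the 4 was also lost when certain other single strains were left out. For Hoxb4 these were BTBR T<+> tf/J, BXD28/TyJ, KK/HlJ and NON/ShiLtJ. For Hoxb3 they were AXB19a/PgnJ, BXD8/TyJ, BXH19/TyJ, BXH2/TyJ and CBA/J. For Hoxa3 they were AKR/J, AXB19a/PgnJ, AXB5/PgnJ, BXD42/TyJ, BXD5/TyJ, BXH4/TyJ and CE/J. Hoxa4 was lost when any 1 of 14 strains was left out, RIIIS/J among them. The others were AXB1/PgnJ, AXB23/PgnJ, BALB/cJ, BTBR T<+> tf/J, BXA11/PgnJ, BXA16/PgnJ, BXD19/TyJ, BXD2/TyJ, BXD40/TyJ, BXD6/TyJ, BXH4/TyJ, C58/J and MA/MyJ. Hoxd13, which patterns the digits and the genital tubercle, passed with an ICC of 0.264 (0.0682 to 0.444, adjusted p = 0.0294) although all its values lay at the receptor level, between 2.98 in BXA26/PgnJ and 3.53 in BXD29-Tlr4<lps-2J>/J as strain means. It was lost without BXA26/PgnJ (adjusted p = 0.0578) and without NZW/LacJ.

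The other lead genes, Hoxd8 and Hoxd9, did not pass. Hoxd8 had an ICC of -0.0512 (adjusted p = 0.747) and strain means from 4.51 in RIIIS/J to 5.70 in BXD34/TyJ. Hoxd9 had an ICC of 0.0360 (adjusted p = 0.419), although its strain means ran from 3.90 in AXB19/PgnJ to 5.43 in AXB6/PgnJ, the widest range among posterior genes. The AXB6/PgnJ mean joins 1 array at 4.40 to another at 6.46, so the high value was not shared by the strain. The 3 lowest ICCs were -0.177 for Hoxb1, -0.140 for Hoxd4 and -0.058 for Hoxd3 among anterior genes, and -0.137 for Hoxa13, -0.0599 for Hoxd11 and -0.0450 for Hoxd10 among posterior genes. Hoxb7 had -0.0401 and Hoxb6 0.153. The closest to passing were Hoxb8 (adjusted p = 0.0535), Hoxc9 (0.0819) and Hoxb6 (0.0973).

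**Figure D2:**
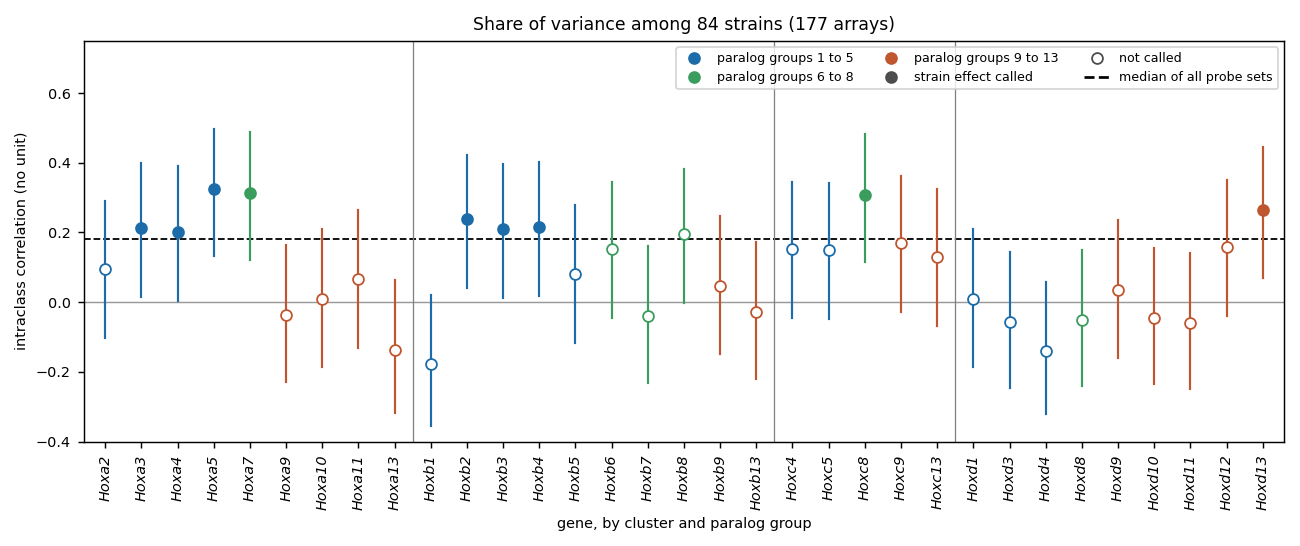
Intraclass correlation of each Hox gene over 84 strains with its 95% interval, filled where limma's F test passed at an adjusted p below 0.05 and coloured by class; the dashed line is the median of all probe sets, 0.182. Hoxa5, Hoxa7 and Hoxc8 lie highest at 0.308 to 0.324, while most posterior genes and Hoxd8 lie near or under 0.

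Arrays of 1 strain were often as far apart as strains. Over the 78 strains with 2 arrays, the median gap between the arrays was 0.33 for Hoxa5, 0.30 for Hoxa7, 0.51 for Hoxc8, 0.31 for Hoxd8 and 0.31 for Hoxd9. The largest gaps were 1.43 for Hoxa5 in BXH9/TyJ, 2.06 for Hoxa7 in SWR/J and 2.06 for Hoxd9 in AXB6/PgnJ. In SWR/J Hoxa7 read 3.51 and 5.57 and Hoxc8 read 3.37 and 5.10 on replicates 1 and 2, whose thymocyte scores were 3.65 and 0.49. In BXH9/TyJ Hoxa5 read 6.61 and 8.03, with thymocyte scores of 3.97 and -0.26. In AXB6/PgnJ Hoxd9 read 4.40 and 6.46, with thymocyte scores of -0.79 and -0.51, both low. The role of thymus RNA in these gaps was not tested.

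Several strains stood at the edge for many members at once. RIIIS/J had the lowest strain mean for 10 of the 33 genes, all among the 24 genes up to group 9. Its 2 arrays had thymocyte scores of 4.04 and 4.28 on replicates 1 and 2 and endothelial scores of -1.35 and -1.45. The values of replicate 2 were the highest thymocyte and the lowest endothelial score of the series. BXD28/TyJ had the highest mean for 6 genes, BXA8/PgnJ and KK/HlJ for 3 each. When 67 arrays with a thymocyte or squamous score above 1 were left out, which kept 82 arrays of 39 replicated strains, 4 Hox genes passed (Hoxa4, Hoxa5, Hoxb2 and Hoxb4), against 33.3% of all probe sets. Hoxa7 and Hoxc8 then had adjusted p-values of 0.0934 and 0.197 by limma.

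Within the BXD family, strains differed in Hoxa7 and Hoxc8. These 2 of 33 genes passed (22 strains, 46 arrays), against 15.1% of all probe sets, and 4 passed at an unadjusted p below 0.05. Hoxa7 had an ICC of 0.647 (0.343 to 0.833, adjusted p = 0.00235 by limma). Its array values ran from 3.75 and 4.49 in BXD14/TyJ, and 4.37 and 4.55 in BXD13/TyJ, to 5.72 and 5.88 in BXD15/TyJ. BXD14/TyJ and BXD15/TyJ were picked as the extremes by these same values, so the gap between their arrays is no further support. Hoxc8 had an ICC of 0.481 (0.115 to 0.740, adjusted p = 0.0247), with arrays at 3.10 and 3.34 in BXD21/TyJ and at 5.36 and 6.47 in BXD28/TyJ. It was no longer called without BXD28/TyJ (adjusted p = 0.0824) or without BXD21/TyJ. Hoxb6 just missed (ICC 0.430, adjusted p = 0.0506). With marker scores as covariates Hoxa7 and Hoxc8 had adjusted p-values of 0.0507 and 0.0542, and Hoxb6 was the gene called.

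The parents of this cross lay inside the range of their descendants. Hoxa7 read 5.43 and 5.18 in DBA/2J, against 5.77, 5.64 and 5.40 in C57BL/6J. Hoxc8 read 4.39 and 5.32 in DBA/2J, against 5.16, 5.21 and 4.84 in C57BL/6J. The arrays of the parents overlapped for both genes. BXD strain means, at 4.12 to 5.80 for Hoxa7 and 3.22 to 5.91 for Hoxc8, reached past the parental arrays at both ends. For Hoxa7 the upper ends were close, 5.80 against 5.77 in C57BL/6J. A range widens with the number of values, and 27 BXD strains stand against the few arrays of DBA/2J and C57BL/6J. The wider range is therefore not read as a difference from the parents.

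**Figure D3:**
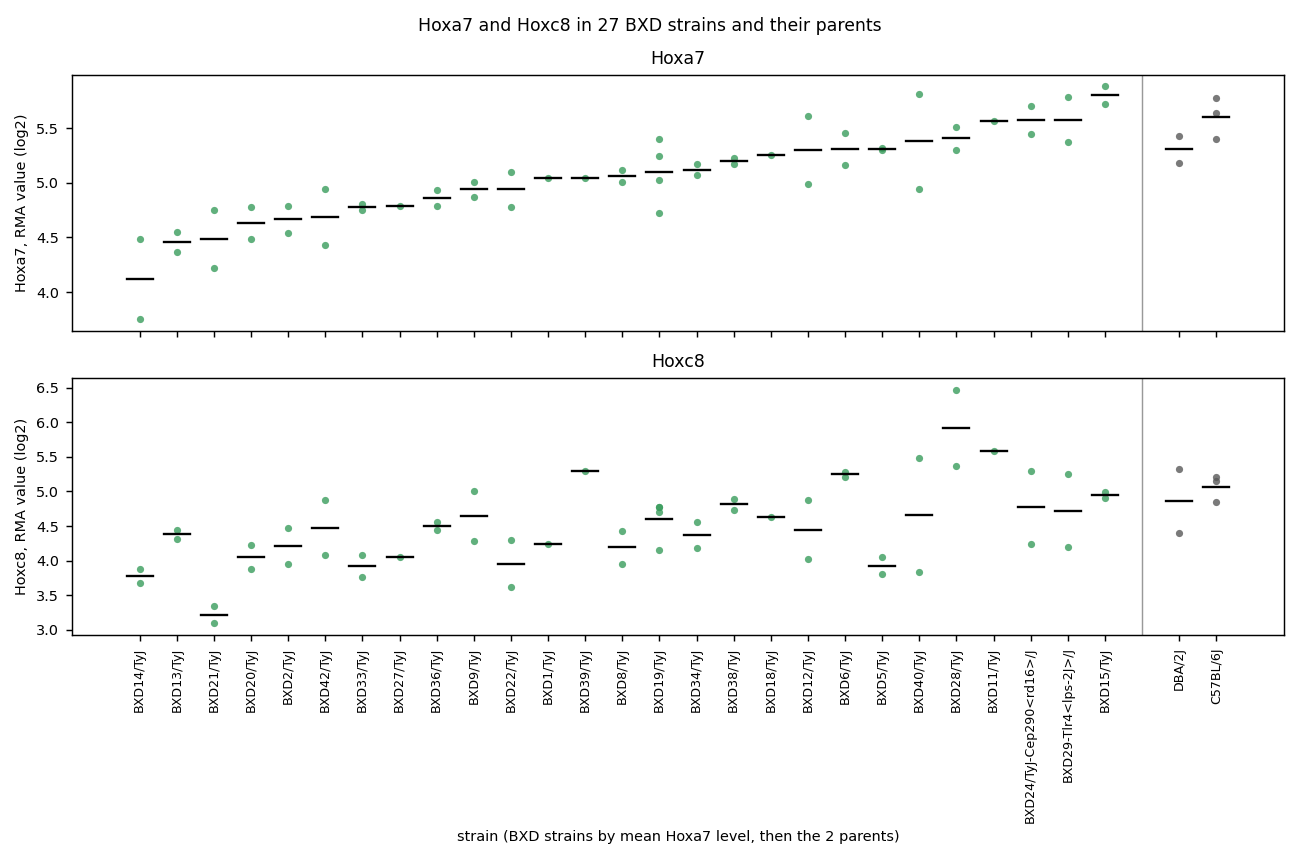
Hoxa7 and Hoxc8 log2 levels in the BXD strains and their parents, with arrays as points and strain means as bars. Strain means span 4.12 to 5.80 for Hoxa7 and 3.22 to 5.91 for Hoxc8, and the arrays of DBA/2J and of C57BL/6J overlap for both.

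In AXB/BXA (27 strains, 58 arrays) limma called 0 of 33 Hox genes, against 3.81% of all probe sets, and 1 had an unadjusted p below 0.05. That gene was again Hoxa7, with an ICC of 0.404 (0.0734 to 0.665, adjusted p = 0.108), strain means of 4.42 in BXA14/PgnJ at the bottom and 5.51 in AXB24/PgnJ at the top, and an adjusted p of 0.0383 without AXB19/PgnJ. In BXH (9 strains, 20 arrays) limma called 0 of 33, against 1.26% of all probe sets, with 3 at an unadjusted p below 0.05 (Hoxa2, Hoxb2 and Hoxb8). The difference in ICC between families was not tested. The lead genes had similar medians of strain means in every family: Hoxa5 7.44 in AXB/BXA, 7.63 in BXD, 7.66 in BXH and 7.40 in the inbred strains, and Hoxd9 4.33, 4.42, 4.41 and 4.34 in the same order.

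The founder strains were set against C57BL/6J in limma contrasts that share 1 estimate of the spread (93 residual degrees of freedom). All 3 contrasts use the same C57BL/6J arrays, so their values are not independent. A/J differed from C57BL/6J in 0 of 33 genes by limma, against 0.645% of all probe sets, and in 3 at an unadjusted p below 0.05. Hoxb2 read 4.30 and 4.73 in A/J, against 5.61, 5.94 and 4.96 in C57BL/6J, a difference of -0.99 (SE 0.32, adjusted p = 0.191 by limma). Hoxb3 read 3.71 and 3.95 in A/J, against 4.96, 4.29 and 4.57 in C57BL/6J, a difference of -0.77 (adjusted p = 0.318 by limma). Hoxb5 differed by -0.68 (adjusted p = 0.504 by limma). None of these 3 differences passed. Hoxb2 passed when C57BL/6J replicate 3 was left out.

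C3H/HeJ differed from C57BL/6J in 0 of 33 genes by limma, against 1.25% of all probe sets, and in 5 at an unadjusted p below 0.05. Hoxc8 read 4.06 and 4.05 in C3H/HeJ, against 5.16, 5.21 and 4.84 in C57BL/6J, a difference of -1.01 (SE 0.46, adjusted p = 0.317 by limma). Hoxa9 went the other way, at 3.88 and 4.28 in C3H/HeJ, against 3.37, 3.64 and 3.48 in C57BL/6J, a difference of 0.59 (adjusted p = 0.204 by limma). Hoxb5, Hoxb2 and Hoxd13 differed by -0.82, -0.74 and -0.30. Hoxa5 read 7.33 and 7.22 in C3H/HeJ, against 8.10, 7.71 and 7.82 in C57BL/6J, a difference of -0.60 with an adjusted p of 0.441 by limma. DBA/2J differed from C57BL/6J in 0 of 33 genes, against 0.524% of all probe sets, with 0 at an unadjusted p below 0.05 and differences between -0.39 and 0.32. The Hoxd9 differences were -0.30 for A/J, 0.09 for DBA/2J and -0.15 for C3H/HeJ against C57BL/6J. The smallest adjusted p of any member was 0.191 for A/J and 0.202 for C3H/HeJ.

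Whether anterior and posterior levels opposed each other was asked over the strain means of the lead genes. No inverse relation passed there. Hoxa5 and Hoxd9 had r = -0.056 and rho = -0.0618 (93 strains, adjusted p = 0.699 by permutation). By family their r was 0.105 in AXB/BXA (28 strains), -0.383 in BXD (27), -0.486 in BXH (10) and -0.024 in the inbred strains (28). The family values were not tested. Hoxd8 and Hoxd9, neighbours in the Hoxd cluster, had r = 0.290 and rho = 0.386 (adjusted p = 0.0218). Hoxa5 and Hoxd8 had r = 0.258 (adjusted p = 0.0447), while their rho of 0.185 did not pass (adjusted p = 0.165). In all 33 relations were tested, 3 between lead genes and 30 between a lead gene and a marker score, and 10 passed on r, 11 on rho and 8 on both. Adjusted p-values are those of r unless rho is named. The differences between the 2 arrays of a strain, which take the strain out, gave r = -0.280 for Hoxa5 and Hoxd9 (78 strains, adjusted p = 0.0322), while rho, at -0.236, did not pass (adjusted p = 0.0814). For Hoxa5 and Hoxd8 they gave 0.235 (adjusted p = 0.0828). Over all 182 pairs of an anterior and a posterior Hox gene, the median r over strain means was 0.133, with 36 of the pairs below 0. Groups 10 to 13, 9 of the 13 posterior genes, lay under the receptor floor on every array. Pairs with them therefore cannot show whether levels opposed. The 56 pairs of an anterior gene with a group 9 gene had a median of 0.144, with 10 below 0, and some of these genes were also dim.

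Hoxa5 followed the fat markers. Over strain means it had r = 0.568 and rho = 0.430 with the adipocyte score (adjusted p = 0.00011, from the smallest p that 100000 permutations can give), and r = 0.490 without the 2 strains farthest from the median score. Labels number the arrays, and these numbers fall into a lower and an upper block. Within the blocks (44 strains each) r was 0.549 and 0.633, and rho was 0.292 and 0.521. The rho of the lower block did not pass (adjusted p = 0.121). Between the 2 arrays of a strain r was 0.785. C57L/J replicate 1 had both the lowest Hoxa5 value, 5.39, and the lowest adipocyte score, -1.08. NOD/ShiLtJ replicate 1 had both the highest Hoxa5 value, 8.71, and the highest adipocyte score, 0.59. With the brown adipocyte score, Hoxa5 had r = 0.355 and rho = 0.469 (adjusted p = 0.00396), with 0.213 (adjusted p = 0.29) and 0.604 in the lower and upper block. With thymocytes it had r = -0.506 and rho = -0.275 (adjusted p = 0.00011), -0.306 without the 2 farthest strains, and -0.575 and -0.424 in the blocks, where rho was -0.382 and -0.132 and did not pass (adjusted p = 0.0591 and 0.613). With squamous epithelium it had r = -0.378 and rho = -0.438 (adjusted p = 0.0028), with -0.371 and -0.422 in the blocks, of which the lower did not pass (adjusted p = 0.0543). Between the 2 arrays of a strain this relation did not pass on r (-0.221, adjusted p = 0.106) and passed on rho (-0.347, adjusted p = 0.0138).

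Hoxd8, like Hoxa5, was inversely related to thymocytes. Over strain means the largest r of Hoxd9 among the tested scores was with smooth muscle. On rho, and between arrays of a strain, other scores had larger values in size. Hoxd8 had r = -0.448 and rho = -0.439 with thymocytes (adjusted p = 0.00011) and r = 0.265 with skeletal muscle (adjusted p = 0.0383), which did not pass without the 2 farthest strains (r = 0.223, adjusted p = 0.0832). Its relation to squamous epithelium was r = 0.165 over strain means and 0.575 between arrays of a strain. In BXD21/TyJ, for example, Hoxd8 read 6.36 and 4.92 beside squamous scores of 2.41 and -0.84. Hoxd9 had r = 0.320 and rho = 0.270 with smooth muscle (adjusted p = 0.00907), with 0.501 and 0.141 in the lower and upper block and 0.196 between arrays of a strain (adjusted p = 0.148). Its relation to squamous epithelium passed on r (0.287, adjusted p = 0.0218) and not on rho (0.239, adjusted p = 0.0541), and on r it rested on the 2 farthest strains (0.232 without them, adjusted p = 0.0754). Its relations to thymocytes, skeletal muscle and kidney and adrenal passed on rho alone (-0.262, 0.279 and 0.302). With adipocytes Hoxd9 had r = -0.214 over strain means (adjusted p = 0.102) and -0.461 between arrays of a strain (adjusted p = 0.00033), the sign opposite to that of Hoxa5.

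Across the members up to group 9 the endothelial score was the one that most often had the largest positive correlation. As a description over the differences between arrays of a strain (78 points, each from 2 hybridisations whose quality all genes share), 12 of the 24 genes up to group 9 had it as that score (50%), against 19.8% of all 11725 named genes, and 8 had r over 0.5 with it (33.3%), against 7.84% of all. The median r was 0.308 for these Hox genes, 0.255 for the Hox genes of groups 10 to 13 and 0.115 for all named genes, with no test of the differences. Among the 12 were Hoxb1, Hoxd1 and Hoxd3, which were above the receptor floor on 0 of 186 arrays. Hoxa9 and Hoxb7, above it on 1 array each, were also among them. Hoxb4 had the highest value with the endothelial score, r = 0.810, and 0.673 over 93 strain means. Hoxa4, Hoxb2 and Hoxb5 had 0.571, 0.557 and 0.547, and Hoxa7, Hoxa3, Hoxb6 and Hoxb3 had 0.529, 0.527, 0.526 and 0.520. Groups 10 to 13 had 0.0463 to 0.354 with the same score, although their values lay at the receptor level, and for 3 of these 9 (Hoxa11, Hoxc13 and Hoxd12) it was also the largest positive one. Hoxb2 had its largest positive correlation with smooth muscle (0.616) and Hoxc4 with squamous epithelium (0.412). Negative values could be larger in size, as for Hoxc4 with thymocytes (-0.535).

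**Figure D4:**
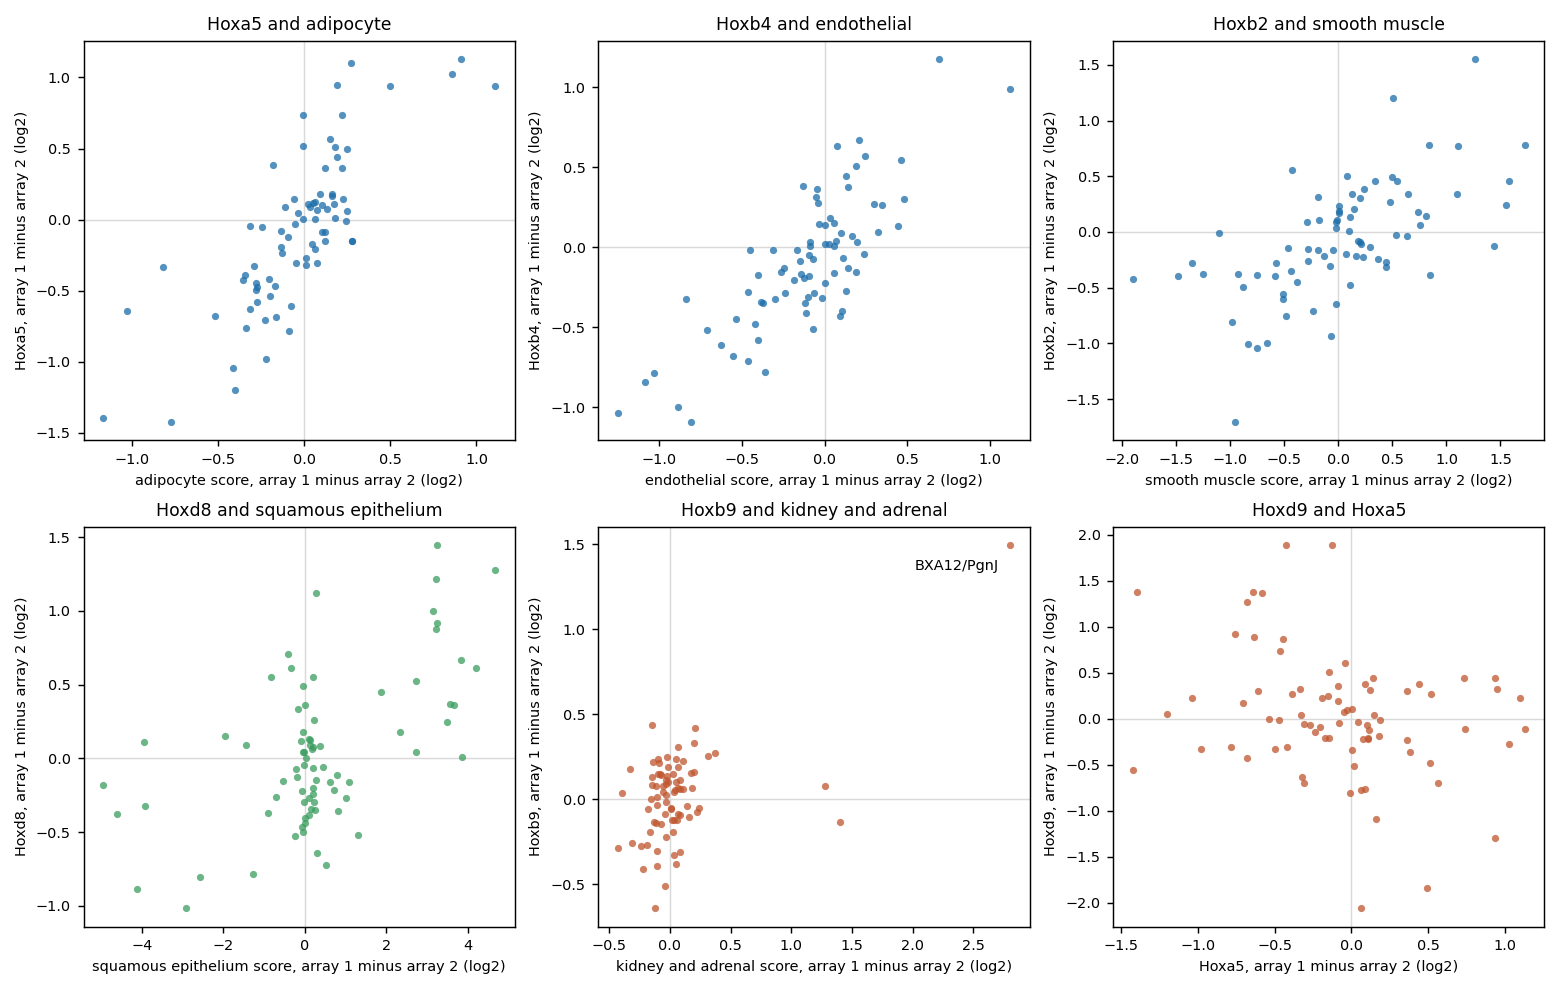
Differences between array 1 and array 2 of the 78 strains with 2 arrays, with a marker score or Hoxa5 on the x axis and a Hox gene on the y axis, both in log2 units. Points run along a rising line for Hoxa5 with adipocytes (r = 0.785) and Hoxb4 with endothelium (r = 0.810), while the Hoxb9 panel rests on BXA12/PgnJ, and Hoxd9 with Hoxa5 has r = -0.280.

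**Figure D5:**
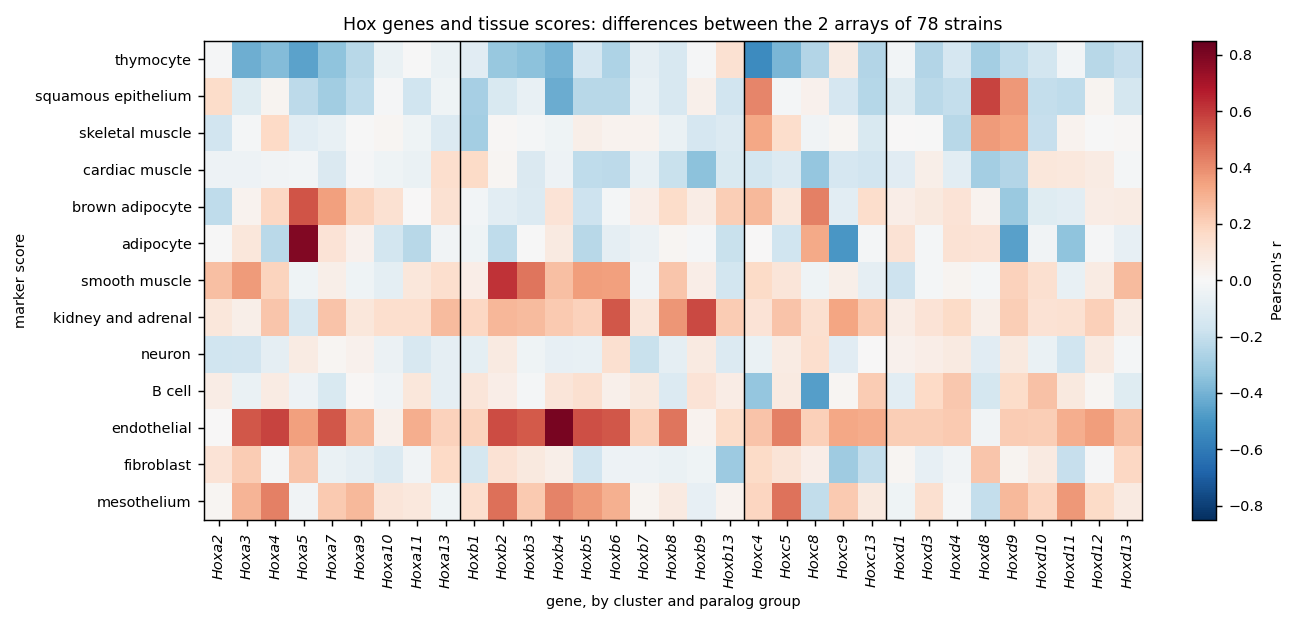
Correlation of each Hox gene with each marker score over the differences between the 2 arrays of 78 strains, as a colour scale from negative to positive. Most genes up to group 9 are positive for the endothelial score (up to 0.810 for Hoxb4), and Hoxa5 stands out for the adipocyte score (0.785).

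Within the Hoxc cluster and within the Hoxb cluster, genes up to group 9 tended to be high in the same strains. Over strain means the median r was 0.307 among the Hoxb genes up to group 9 (36 pairs) and 0.365 among Hoxc (6 pairs). It was 0.255 among Hoxa (15 pairs) and 0.0047 among Hoxd (10 pairs), against 0.176 over all 528 pairs of Hox genes. Over strain means it was 0.199 for pairs up to group 9 from different clusters, and 0.174 within groups 10 to 13, which lay at the receptor level. Over the differences between arrays of a strain the median was 0.322 for Hoxb, 0.225 for Hoxc, 0.232 for Hoxa and 0.016 for Hoxd. The highest of all pairs were 0.740 for Hoxb2 and Hoxb5, 0.699 for Hoxb4 and Hoxb8, and 0.695 for Hoxb2 and Hoxb6. Hoxa7 and Hoxc8, central genes on different chromosomes, had r = 0.647, with 0.598 in AXB/BXA, 0.657 in BXD, 0.617 in BXH and 0.71 in the inbred strains. Hoxc9 and Hoxd9, both of group 9, had 0.352 over all strains, 0.540 in AXB/BXA and -0.023 in BXD. These are descriptions over the same arrays, with no test of the differences between sets.

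Hoxc9 and Hoxd9 were the group 9 genes that were above the receptor floor on more than 1 array. Of the 10 highest arrays of each they shared 2 (20% of each list), BXA8/PgnJ replicate 2 and SJL/J replicate 1. BXA8/PgnJ replicate 2 had Hoxd9 at 5.48 and an adipocyte score of -0.81. BXH2/TyJ replicate 1 combined Hoxd9 at 6.13 with the series' highest Hoxb2, Hoxb5 and Hoxb6 and the highest smooth muscle score, 1.11. Replicate 2 of that strain had Hoxd9 at 4.24 and a smooth muscle score of 0.61.

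The kidney and adrenal score was above 1 on 4 arrays, and 3 of them also had high values of a group 9 gene. The scores were 3.95 on BXA12/PgnJ replicate 1, 1.40 on KK/HlJ replicate 1, 1.22 on SJL/J replicate 1 and 1.15 on BXA12/PgnJ replicate 2. On BXA12/PgnJ replicate 1 the adrenal steroid genes Cyp11a1, Star and Hsd3b1 read 11.66, 10.39 and 12.47, beside 5.29, 5.19 and 7.55 on replicate 2. Hoxb9 read 4.82 on the first of these arrays and 3.33 on the other, and its next highest value in the series was 3.61. On BXA12/PgnJ replicate 2 Hoxc9 read 4.07 and Hoxd9 4.04. KK/HlJ replicate 1 and SJL/J replicate 1 had the kidney gene Kap at 8.35 and 8.65 and Cdh16, a kidney cadherin, at 8.72 and 8.35. Hoxc9 read 5.12 and 4.60 on them, and 4.34 and 3.67 on the other arrays of these strains. Hoxd9 read 5.28 and 5.75 on them, and 4.95 and 4.38 on the other arrays. The 2 highest Hoxd9 values of the series, on AXB6/PgnJ replicate 2 (6.46) and BXH2/TyJ replicate 1 (6.13), stood beside kidney and adrenal scores of -0.07 and -0.04. The correlation of Hoxb9 with the kidney and adrenal score over strain means was 0.694 (rho 0.141) and became 0.0728 without these 3 strains (90 strains). For Hoxc9 it was 0.293 and became 0.571. High values on these arrays were not particular to group 9. On replicate 1 of BXA12/PgnJ, KK/HlJ and SJL/J, Hoxb6 read 5.47, 4.79 and 5.04, ranks 2, 7 and 4 of the series. Hoxa5 ranked 174, 163 and 149 on them. These arrays also had neuron scores of 1.88, 1.97 and 1.83, and Alb read 4.70, 8.29 and 8.20. The role of RNA from any of these tissues in the Hox values was not tested.

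The genes whose strain means were most like those of each lead gene were sought among 11692 others. For Hoxa5 they were Ebf2 (r = 0.653), a factor of brown fat precursors, Klb (0.652), the fat and liver coreceptor of FGF21, Sbf2 (0.648), St7l (0.639) and Dnajb9 (0.630). For Hoxd8 they were Tbx3 (0.593), a T-box factor, Dusp22 (0.553), Lrrn1 (0.538), Ybx3 (0.534) and Nos1 (0.506). For Hoxd9 they were Plpp2 (0.750), Slc16a3 (0.733), a lactate transporter, Pik3r2 (0.733), Slc27a4 (0.714), a fatty acid transporter, and Plscr3 (0.712). All are correlations over 93 strains and carry no test.

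Genes that work with or upstream of Hox proteins were read in the same strain test. Of 8 measured cofactors, 2 passed, Pbx2 (ICC 0.281) and Meis2 (0.208). Meis1 (0.0769), Pbx3, Pbx4, Meis3, Pknox1 and Pknox2 did not. Of 16 measured regulators of Hox clusters, 10 passed, led by Ezh1 (0.543) and Cbx7 (0.508), Polycomb proteins, then Phc1 (0.282) and Rnf2 (0.257). Cdx1, Cdx2 and Cdx4, the caudal factors, and Ezh2, Cbx2 and Ctcf did not. Of 10 measured genes of retinoic acid signalling, the inducer of anterior Hox genes in the embryo, 4 passed: Aldh1a3 (0.366), Rxra (0.230), Aldh1a2 (0.198) and Rarg (0.196). Aldh1a1, Cyp26a1, Rara, Rxrb, Crabp1 and Crabp2 did not. Of 31 other transcription factors of regional identity 15 passed, led by Meox1 (0.491), Lhx8 (0.408), Nr2f2 (0.407) and Osr1 (0.376). Hand1, Hand2, Tbx1, Tbx2, Tbx3, Tbx15, Tbx18, Gata4, Msx1, Msx2, Prrx2, Wt1, En1, Eya1, Pax1 and Pax9 did not. The background for all these counts is the 46.5% of probe sets given above. That share was 70.0% above the median probe set level and 23.0% below it. These lists were not matched for level, so their counts are not read as an excess or a lack.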

How the data were processed

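Aortic RNA of 94 strains was measured on 188 arrays. The deposited values are log2 expression values made by the authors with GCOS and RMA, per the submitters' processing notes. The sources used here name neither their versions nor a genome build (not given). Array medians lay between 4.55 and 4.88. Of the probe sets, 89 controls were left out and 22327 tested, of which 17783 carried 1 symbol, 284 several and 4260 none in the platform annotation. No array column lacked a label. The number of arrays limits precision.

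Groups were the strains in the labels. The labels do not say that arrays of a strain are separate animals, so p-values measure the spread between arrays, which may be technical. The 2 BXD32/TyJ arrays were left out of the main fits and kept in an alternative setting. The means that picked probe sets and centred the marker scores included them. The most similar arrays had r = 0.994, and none were merged.

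Strain effects were limma moderated F tests on all probe sets with Benjamini-Hochberg adjustment, called below 0.05. ICCs with 95% intervals were estimated from one-way variance components. Founders were compared by limma contrasts within 1 fit of every strain. Lead gene relations were tested by two-sided permutation (100000 resamples) and adjusted over 33 relations. The members and lists, the receptor floor and the organ genes were chosen with earlier results of these data known. Named with values were the lead genes, all members called, the 3 members of each class with the lowest ICC and the widest range in each class, and partner genes by the 4 highest ICCs and all that did not pass. Genes outside this rule were named after their values were seen. Alternatives were a dim filter, covariates, centring, omitted arrays and omitted strains.

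R 4.3.3, limma 3.58.1, data.table (version 1.17.8), Python 3.11.15, numpy 2.4.6, pandas 2.3.3, scipy 1.17.1 and matplotlib 3.10.9 were used. The procedures were tested on simulated data.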

Additional observations from a re-analysis of the deposited data

Results flagged for a closer look

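In the 3 strains with 4 arrays, 99 combinations of gene and strain were examined for an array far from the other 3, and 6 (6.06%) had one. Chance flags about 1 in 20 such groups. In AXB19b/PgnJ, Hoxa3 read 4.56 on replicate 1 beside 4.97 to 4.99 on the others, and Hoxb13 read 3.48 on replicate 2 beside 3.09 to 3.11. In BXD19/TyJ, Hoxb4 read 6.04 on replicate 2 beside 5.76 to 5.78, and Hoxc8 read 4.16 on replicate 1 beside 4.71 to 4.78. In BXH4/TyJ, Hoxb1 read 2.97 on replicate 4 beside 3.11 to 3.12, and Hoxc4 read 5.01 on replicate 3 beside 5.34 to 5.39. The Hoxb1 and Hoxb13 values lie at the receptor level.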

How the results depend on the processing

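Of the 9 Hox genes that differed between strains, 5 were called when probe sets below the median level were left out, which removed Hoxa4, Hoxb3, Hoxc8 and Hoxd13 from the test. The count was 4 without arrays rich in thymocyte or squamous RNA and 4 (Hoxa5, Hoxa7, Hoxb3 and Hoxc8) over the 77 strains whose array numbers are consecutive, with fewer arrays in both. Other settings gave 7 to 11, 2 of them chosen after seeing the data (adipocyte, endothelial and smooth muscle covariates, 9, and omission of BXA12/PgnJ, KK/HlJ and SJL/J, 11), and leaving out 1 strain gave 5 to 12. In BXD the count of 2 became 1 with marker scores as covariates and 1 with the dim filter, and 4 with adipocyte, endothelial and smooth muscle scores as covariates, a setting chosen after seeing the data; leaving out 1 strain gave 1 to 3. In AXB/BXA leaving out 1 strain gave 0 to 1 called genes and in BXH 0. For A/J against C57BL/6J leaving out 1 array gave 0 to 1, and for DBA/2J and C3H/HeJ 0. The 10 lead gene relations that passed on r became 5 within the upper array number block, which holds 44 strains. Between arrays of a strain Hoxd8 and the cardiac muscle score had r = -0.29, against 0.024 over strain means, and the cause was not tested. Of the alternatives for single relations, 169 kept direction and side of the threshold, 14 newly passed and 14 no longer passed. Of those that newly passed, 5 came from taking all arrays as points, which counts arrays of 1 strain as independent. For single genes in the strain test, 280 kept their side of the threshold, 7 newly passed and 17 no longer passed. The array number block could not be fitted in BXD, where no strain spans both blocks. No paired analysis was possible because the strains share no replicate numbers in the labels. Values near the receptor level limit what can be said of groups 10 to 13.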

Other observations

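The 2 BXD32/TyJ arrays were left out of the main comparisons and kept in an alternative setting. They read 7.11 and 8.0 for Hoxa5, 5.12 and 4.35 for Hoxd9, 5.90 and 4.99 for Hoxb2, and 4.98 and 3.64 for Hoxb5. The Hoxb5 value of replicate 1 was above the 4.94 that was the highest on the other 186 arrays. Squamous scores on the 2 arrays were 0.25 and 3.27.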
